A study of Mus musculus with 6 samples.

Results

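The genes described here are the nuclear-encoded subunits of the mitochondrial respiratory chain, complexes I to V, in cells sorted from bone marrow stromal cell (BMSC) cultures. Members were taken from the gene count table by symbol: Nduf genes of the a, b, c, s and v series for complex I, Sdha to Sdhd for complex II, Uqcr genes for complex III, Cox4 to Cox8 subunits with an a, b or c suffix for complex IV and Atp5 genes for complex V. A member also needed a count of 10 or more in at least 3 libraries. Of 17469 genes in the table, 83 had such a symbol and 80 met the minimum, with 38 in complex I, 4 in complex II, 8 in complex III, 13 in complex IV and 17 in complex V. The 3 genes under the minimum were Cox8c, Ndufa11b and Ndufb4b, and the members nearest to it were Ndufa4l2 and Cox7a1, each at 10 counts or more in 3 libraries, and Cox6b2, in 4.

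The study asked what expression of Swedish mutant human APP in the osteoblast lineage does to bone and brain, and sequenced RNA of cultured BMSCs from 6-month-old mice. Controls were Ocn-Cre;Ai9 mice and the other group was TgAPPswe;Ocn-Cre;Ai9 mice, named control and TgAPPswe below, with 3 libraries each and no treatment. Both genotypes carry Cre under the osteocalcin promoter and Ai9, a reporter that makes tdTomato once Cre has acted, and the APP transgene is expressed from the CAG promoter once Cre removes a stop cassette. This Cre is also active in some neurons. Marrow cells of femur and tibia were cultured for 7 days, passaged and grown for 3 more days, and the tdTomato+ cells were sorted by FACS. Values from such purified cells are described as those of 3 mice, but nothing ties each library to a mouse, so p-values measure the spread between these libraries, which may be technical.

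Libraries held 19340810 to 22037840 estimated counts, and the members took 0.595 to 0.649% of them in control and 0.628 to 0.670% in TgAPPswe, so these raw shares overlapped. No library repeated another: the difference between libraries was 2.45 to 5.67 times sampling noise within a genotype and 42.3 to 51.3 times between genotypes. App, the mouse counterpart of the transgene, was at 852, 829.8 and 845 normalized CPM (counts scaled to a common library total) in control and at 1161, 1139.8 and 1159 in TgAPPswe (log2 fold change 0.45, SE 0.05, edgeR adjusted p = 7.87e-05), where the part of reads from the human transgene was not tested. Markers of osteoblast-lineage cells were low for cells of that name. Bglap, which encodes osteocalcin, had 0.350 to 1.25 FPKM (fragments scaled to library total and transcript length) in control and 0 to 0.490 in TgAPPswe, and Runx2 had 1.30 to 2.13 FPKM over all 6 libraries. All 15 myeloid markers were detected in both genotypes, with a summed level of 24893 to 26598 FPKM in control and 19434 to 23102 in TgAPPswe, beside 1135 to 1219 and 653 to 922 for 15 stromal and osteoblast markers, of which Spp1 alone held 481 to 1000.3. Of the myeloid markers 5 were raised (33.3%) and 7 lowered (46.7%), and of the 14 stromal markers tested 4 were raised and 4 lowered (28.6% each). Among all tested genes 32.5% were raised and 31.5% lowered. Single markers changed by large amounts in both directions. Log2 fold changes ran from -2.38 to 2.04 for the myeloid markers and from -0.78 to 6.25 for the stromal ones. The median level of the myeloid markers was 1214 FPKM in control and 502 in TgAPPswe. Summed levels of erythroid markers (0.03 to 0.11 FPKM in control and 0.33 to 0.58 in TgAPPswe), lymphoid markers (0.97 to 1.52 and 3.30 to 3.72) and endothelial markers (3.82 to 5.89 and 5.11 to 5.98) were far lower. The part of any of these cells in the results below was not tested, and in bulk RNA a change in the mix of cells cannot be told apart from a change within cells.

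Complex I takes electrons from NADH and complex II from succinate, ubiquinone carries them to complex III, cytochrome c carries them on to complex IV, and complex IV passes them to oxygen. Complexes I, III and IV pump protons across the inner mitochondrial membrane, and complex V, the ATP synthase, uses the proton gradient to make ATP. Part of every complex but II is encoded in the mitochondrial genome, and those subunits were not analysed here. The other subunits are nuclear genes whose products are imported and assembled. In macrophages, the balance between this chain and glycolysis is well known to shift with activation.

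In TgAPPswe cells more respiratory chain genes were higher than lower, by modest amounts. By the quasi-likelihood test of edgeR, with p-values adjusted over 12701 genes by the Benjamini-Hochberg method, at an adjusted p at or below 0.05, 37 of the 80 members were raised (46.25%), 6 were lowered (7.5%) and 37 were not called. Among all tested genes 32.5% were raised and 31.5% lowered, so under this scaling the members stood above the background in the upward direction and below it in the downward one. Their median log2 fold change was 0.15, beside -0.02 for all tested genes. With a log2 fold change of at least 1 asked as well, 1 member was raised (Cox5a) and 1 lowered (Cox7a1), against 8.9% and 9.2% of all tested genes. Cox7a1 met the count minimum through the control libraries alone, where it was higher. The 3 TgAPPswe libraries all lay above the 3 control libraries for 38 members and all below for 7, against 34.8% and 34.9% of all tested genes.

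The direction of small changes depended on how libraries were scaled. The main scaling, TMM, sets the bulk of genes to no change, whereas scaling by library size alone lowers the log2 fold change of the median gene by 0.22 and puts the median of all tested genes at -0.23 and that of the members at -0.06. The change of scaling moved nearly all genes alike, by 0.211 to 0.217 for most of them. The distance from members to all genes, 0.17 under both, was therefore bound to stay and is no check of the result. Under library size 17 members were raised (21.25%) and 22 lowered (27.5%), against 22.1% and 45.9% of all tested genes, so the upward excess was absent there and the share lowered stayed below that of all genes. In all, 20 members, 2 of them raised under TMM (Ndufv2 and Sdha), changed sign. All 17 of these raised members were also raised under TMM, and the 6 members lowered under TMM were lowered under library size too. Those 17 were Ndufs4, Ndufb6, Ndufc1, Ndufa12 and Ndufb9 of complex I, Sdhb and Sdhc of complex II, Uqcrq of complex III, Cox5a, Cox6c, Cox6a1, Cox7b and Cox7a2 of complex IV, and Atp5b, Atp5o, Atp5a1 and Atp5f1 of complex V. Without the third TgAPPswe library 3 members were lowered instead of 6, with Ndufb11, Uqcr11 and Cox7a1 no longer called.

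**Figure D1:**
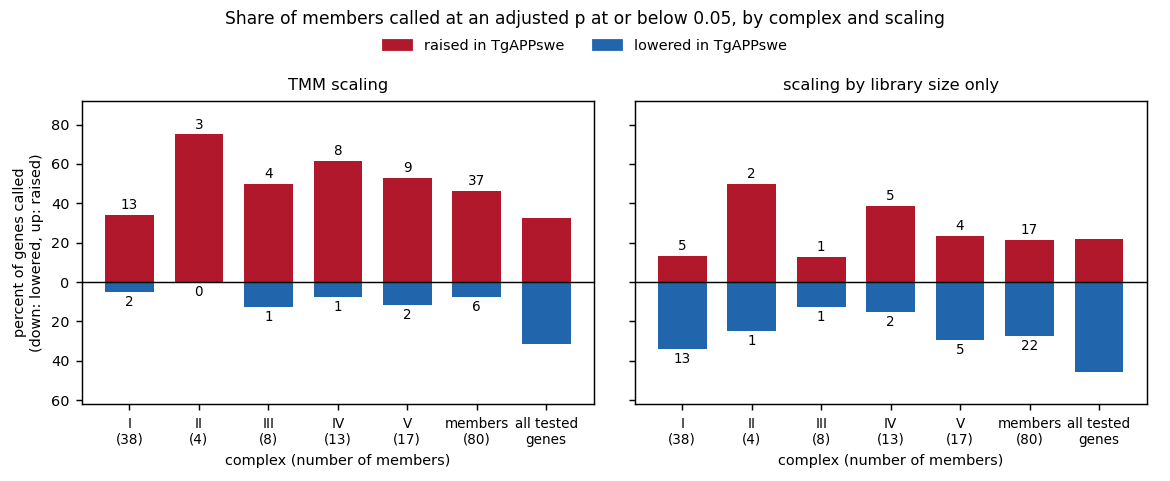
Share of members called in each complex, in percent of the members tested (upward bars raised, downward bars lowered in TgAPPswe; numbers on the bars are member counts), with all tested genes at the right of each panel, under TMM scaling (left) and library size scaling (right). Under TMM 8 of 13 complex IV members and 13 of 38 complex I members were raised, and under library size 5 and 5.

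The share of members called varied by complex. Complex IV had 8 of 13 members raised and 1 lowered (median log2 fold change 0.28), complex V 9 of 17 and 2 (0.23), complex III 4 of 8 and 1 (0.21), complex II 3 of 4 and none (0.25) and complex I 13 of 38 and 2 (0.11). Beside the 32.5% of all tested genes raised, complex I, at 34.2%, was near the background, and the others were at 50% to 75%. Under library size scaling these medians were 0.07, 0.01, -0.01, 0.04 and -0.11, so that complexes I and III turned below 0. The order of IV, II, V, III and I stayed, as a nearly equal shift of all genes leaves it. Under library size scaling 5 members were raised and 2 lowered in complex IV, 4 and 5 in V, 1 and 1 in III, 2 and 1 in II, and 5 and 13 in I. All tested genes were at 22.1% raised and 45.9% lowered there. The difference between complexes was not tested. Summed over members, complex IV was at 1175, 1067 and 1030.5 normalized CPM in control and at 1574, 1428 and 1411 in TgAPPswe, whereas complex I was at 1723, 1591 and 1532 and at 1815, 1706 and 1666. The complex IV sums did not overlap between genotypes and the complex I sums did. Summed FPKM, which carry no TMM scaling, ran the other way for complex I, with 2928, 2666 and 2554 in control and 2545, 2484 and 2374 in TgAPPswe, without overlap. For complex IV they were 2421, 2202 and 2107 against 2736, 2580 and 2509, again without overlap, and for complexes III and V they overlapped. On the scale of summed normalized CPM the log2 ratio of TgAPPswe to control was 0.43 for complex IV, 0.36 for complex V, 0.25 for complex II, 0.22 for complex III and 0.10 for complex I. Abundant members weigh most in these sums. The mean sum of complex V went from 2037 to 2609, with Atp5b from 419 to 680 and Atp5a1 from 397 to 562. That of complex IV went from 1091 to 1471, with Cox5a from 99.5 to 232.

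**Figure D2:**
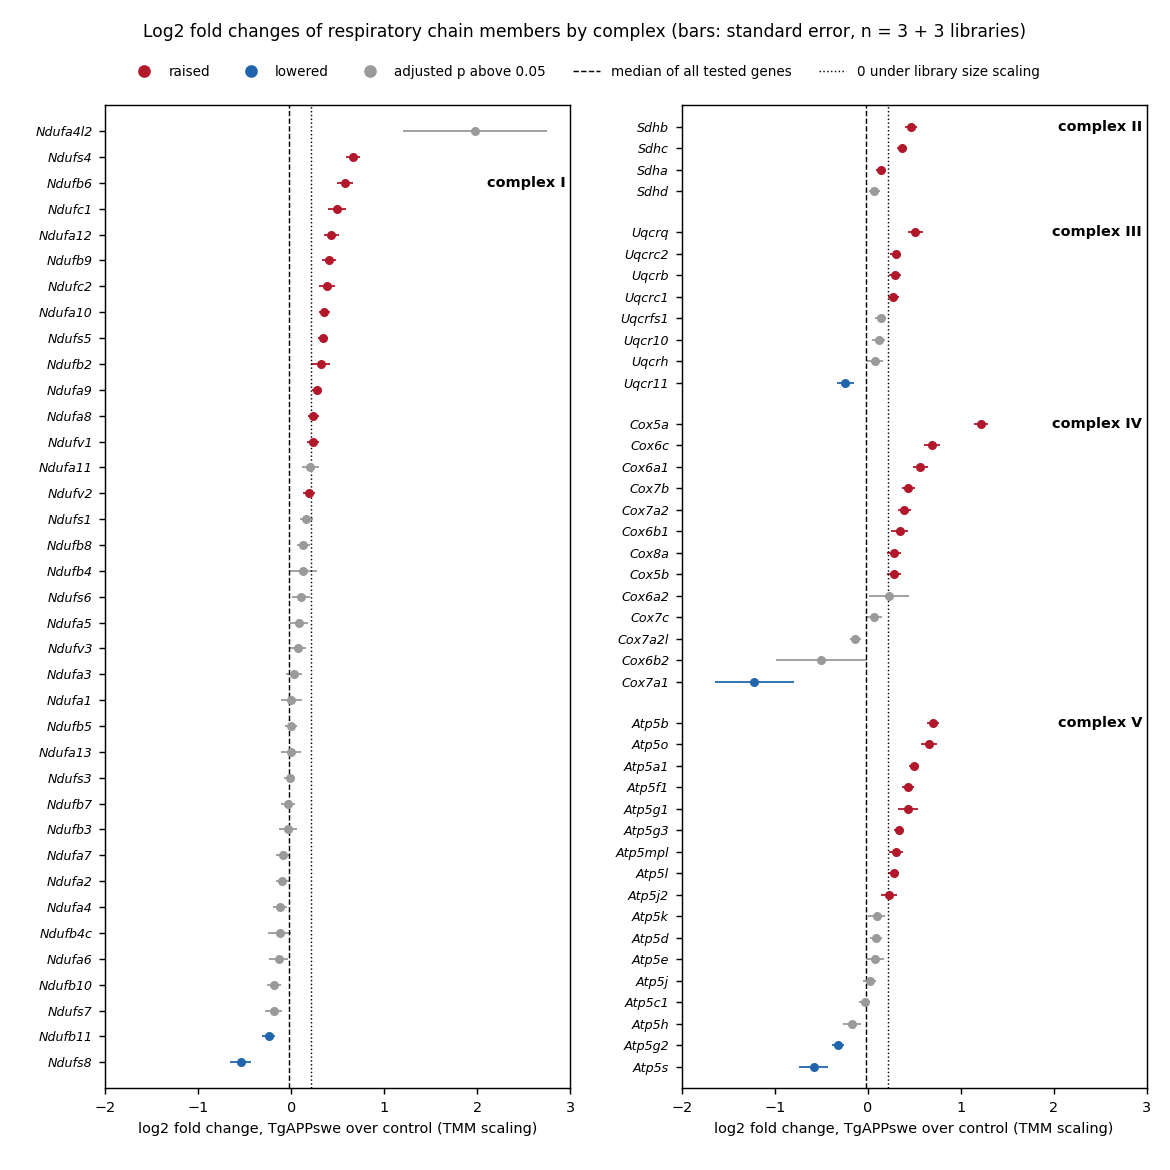
Log2 fold change of TgAPPswe over control (x axis, TMM scaling) for members by complex, with standard errors as bars and colour for the call at an adjusted p at or below 0.05. The dashed line is the median of all tested genes (-0.02). The dotted line, at 0.22, is where a fold change of 0 under library size scaling lies for the median gene. Cox5a at 1.22 and Cox7a1 at -1.22, a member through its control counts alone, were the called members farthest from 0.

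Complex I, the NADH dehydrogenase, has core subunits that hold the flavin and the iron-sulfur clusters and many accessory subunits around them. Its nuclear core members split, with Ndufv1 (0.23) and Ndufv2 (0.19), neighbours at the NADH end, raised, Ndufs8 lowered and Ndufs1, Ndufs3 and Ndufs7 not called, at log2 fold changes of 0.16, -0.02 and -0.19. Neither Ndufv gene kept its call under library size scaling, and of the 6 fits with a library left out Ndufv2 lost it in 4 and Ndufv1 in 1, without the third control library. Ndufs8, an iron-sulfur subunit near the ubiquinone site, was at 41.8, 37.6 and 36.4 normalized CPM in control and at 31.4, 24.2 and 23.9 in TgAPPswe. All 3 TgAPPswe libraries lay below the control libraries (log2 fold change -0.54, SE 0.11, edgeR adjusted p = 0.00279). Ndufv1 and Ndufs8 lie 94.7 kb apart on chromosome 19 (mm10) and were called in opposite directions.

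Among called members of complex I the largest rises were in accessory subunits. Ndufs4, whose loss causes a Leigh-like disease in mice, was at 19.4, 18.4 and 17.6 normalized CPM in control and at 30.0, 30.6 and 27.0 in TgAPPswe (log2 fold change 0.66, SE 0.08, edgeR adjusted p = 9.2e-05). For Ndufb6, of the membrane arm, the values were 18.4, 20.01 and 16.5 against 29.0, 25.8 and 27.1 (0.58, SE 0.09, edgeR adjusted p = 0.000505). For both genes the genotypes did not overlap. Of the 12 Ndufb and Ndufc members of the membrane arm 5 were raised (41.7%, beside 32.5% of all tested genes: Ndufb6, Ndufc1, Ndufb9, Ndufc2 and Ndufb2, 0.32 to 0.58) and Ndufb11 was lowered, from 58.9, 57.2 and 51.6 normalized CPM to 49.0, 46.3 and 46.3 (-0.24, SE 0.07, edgeR adjusted p = 0.012). Under library size scaling 3 of the 12 were raised and 5 lowered. Ndufb2 lost its call in 4 of the 6 fits with a library left out, and Ndufb11 without the third TgAPPswe library. Of the 16 other accessory members 6 were raised (Ndufs4, Ndufa12, Ndufa10, Ndufs5, Ndufa9 and Ndufa8, 0.24 to 0.66) and none lowered. Their 37.5% was close to the background, and under library size scaling 2 were raised and 3 lowered.

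Ndufa4, first assigned to complex I and later found in complex IV, had the highest level per length among members with an Nduf symbol (223 FPKM ± 16.5 in control and 176 ± 6.42 in TgAPPswe, SD, n = 3). Its normalized CPM were 93.7, 87.1 and 80.5 against 85.0, 76.1 and 78.9, which overlapped, and it was not called (log2 fold change -0.12, edgeR adjusted p = 0.174). It was lowered under library size scaling (-0.34), with limma on either FPKM scale, which has that scaling too, and with the trend on gene length removed (-0.17). Ndufa4l2, its paralog known as a hypoxia target, had counts of 11, 7 and 7 in control and 4, 61 and 31 in TgAPPswe. The TgAPPswe libraries thus spread on both sides of the control ones, and the log2 fold change of 1.97 (SE 0.77) had an edgeR adjusted p of 0.0502, reaching 0.000961 without the first TgAPPswe library and 0.208 without the second, and 0.0144 with DESeq2. The third gene of this family, AA467197, is the mouse Nmes1 gene, whose product can take the place of Ndufa4 in complex IV, and lies outside the symbol rule. It had counts of 1, 6 and 9 in control and 63, 54 and 53 in TgAPPswe (log2 fold change 3.44, SE 0.44, edgeR adjusted p = 0.000164), with no overlap. Its counts were still 0.0333 to 0.0370 of those of Ndufa4 in TgAPPswe, beside 0.000507 to 0.00534 in control.

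In complex II, succinate dehydrogenase, which also belongs to the TCA cycle, 3 of 4 subunits were raised. The iron-sulfur subunit Sdhb was at 99.1, 91.5 and 89.2 normalized CPM in control and at 139, 125 and 123 in TgAPPswe (log2 fold change 0.47, SE 0.07, edgeR adjusted p = 0.000412). Sdhc, a haem-binding membrane anchor, was at 97.3, 101 and 96.6 against 122, 131 and 127 (0.37, SE 0.05, edgeR adjusted p = 0.000389). Neither gene's groups overlapped, and both were raised under library size scaling too. Sdha, the flavoprotein, rose by 0.14 (-0.08 under library size scaling), a call kept in 5 of 16 alternatives and lost in all 6 fits with a library left out. The other anchor, Sdhd, was at 0.07 and not called. The count ratio of Sdhb to Sdha, which no scaling factor changes, of 2 subunits that pair in the catalytic dimer, went from 0.486, 0.458 and 0.433 in control to 0.601, 0.568 and 0.558 in TgAPPswe.

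Complex III, the cytochrome bc1 complex, had Uqcrq, Uqcrc2, Uqcrb and Uqcrc1 raised and Uqcr11 lowered. Uqcrq, a small subunit that sits beside cytochrome b, was at 62.6, 59.0 and 51.9 normalized CPM in control and at 88.6, 81.2 and 77.8 in TgAPPswe, without overlap (log2 fold change 0.51, SE 0.08, edgeR adjusted p = 0.000702). Uqcrc2, one of the core proteins, whose counts were fractional in all 6 libraries from reads shared with other genes, was at 72.3, 71.6 and 76.4 against 93.6, 87.0 and 90.4 (0.30, SE 0.06, edgeR adjusted p = 0.00179). Uqcrb had the highest level per length of the complex (182 FPKM ± 10.02 and 193 ± 6.30, SD, n = 3), with 77.1, 73.9 and 68.9 normalized CPM against 95.1, 88.2 and 86.7 (0.30, SE 0.07, edgeR adjusted p = 0.00393). Of these, only Uqcrq was called under library size scaling, where Uqcrc2 and Uqcrb were each at 0.08. The fall of Uqcr11 was the weakest call of the complex, since 58.4, 58.9 and 47.6 normalized CPM against 48.2, 47.6 and 43.7 overlapped (-0.24, SE 0.09, edgeR adjusted p = 0.0451), and it was lost in 5 of 6 fits with a library left out. The Rieske iron-sulfur protein Uqcrfs1 (0.14), Uqcr10 (0.12) and Uqcrh (0.08) were not called. Cyc1, the cytochrome c1 of this complex, which the symbol rule does not catch, was at 61.3, 60.6 and 59.6 normalized CPM against 81.6, 78.4 and 75.8, without overlap (0.38, edgeR adjusted p = 0.000357).

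Complex IV, cytochrome c oxidase, reduces oxygen to water. Of its 9 ubiquitous members 8 were raised, Cox7c alone not being called (0.07, edgeR adjusted p = 0.525), with a median log2 fold change of 0.40 under TMM and 0.18 under library size, where 5 were raised. Among all tested genes 32.5% were raised under TMM and 22.1% under library size. Cox5a, a nuclear subunit bound to the catalytic core, rose most among the called members. It was at 101, 94.99 and 102 normalized CPM in control and at 253, 218 and 224 in TgAPPswe, so that each TgAPPswe library held more than 2 times the CPM of each control library. The log2 fold change was 1.22 (SE 0.07, 95% interval 1.05 to 1.38, edgeR adjusted p = 2.05e-06) and 1.002 under library size scaling. In level per length Cox5a went from 172 FPKM ± 6.84 to 344 ± 21.6 (SD, n = 3), while its neighbour in the complex, Cox5b, was at 239 ± 19.2 and 251 ± 13.6. The count ratio of Cox5a to Cox5b accordingly was 0.835, 0.882 and 0.985 in control and 1.78, 1.59 and 1.78 in TgAPPswe.

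Cox6c followed, with 70.6, 59.3 and 63.3 normalized CPM in control and 109, 108 and 94.6 in TgAPPswe (log2 fold change 0.69, SE 0.08, edgeR adjusted p = 0.000133). Cox6a1, the ubiquitous form of subunit VIa and the highest member per length in TgAPPswe, where control had Cox8a above it (369 FPKM ± 30.8 and 469 ± 25.2, SD, n = 3), was at 167, 166 and 143 against 254, 221 and 228 normalized CPM (0.56, SE 0.08, edgeR adjusted p = 0.000344). In both cases the lowest TgAPPswe library was above the highest control one. Cox7b (0.44), Cox7a2 (0.40), Cox6b1 (0.35), Cox8a (0.28) and Cox5b (0.28) completed the raised set, and the last 3 were not called under library size scaling. Cox7a2 was at 55.4, 50.7 and 51.9 normalized CPM against 74.5, 67.5 and 65.7 (edgeR adjusted p = 0.00101). Cox6b1 was at 150.5, 129 and 125 against 189, 164 and 162 (edgeR adjusted p = 0.00899), and Cox8a at 197, 175 and 168 against 232, 215 and 211 (edgeR adjusted p = 0.00894). Cox4i1, the ubiquitous form of the largest nuclear subunit and not a member, was not called (0.08, edgeR adjusted p = 0.354), at 227, 216 and 198 against 241, 219.6 and 216.

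The forms of complex IV subunits known from heart and muscle or testis were low. Cox7a1, the heart and muscle form of Cox7a2, had counts of 15, 12 and 17 in control and 6, 9 and 3 in TgAPPswe, without overlap (log2 fold change -1.22, SE 0.43, edgeR adjusted p = 0.0322). The lowest of these equals 3 counts, the number taken as the floor, and the call was lost in 4 of 6 fits with a library left out and with DESeq2 (adjusted p = 0.106). Cox7a1 met the count minimum of the rule through the control libraries alone, where it was higher. Its fall is therefore tied to how it was selected and is given as a description. Cox6a2, the muscle form of Cox6a1, had 38 to 57 counts per library. It was at 1.81, 2.25 and 1.82 normalized CPM against 2.05, 2.76 and 2.08 and was not called (0.23, edgeR adjusted p = 0.373). Cox6b2, the testis form of Cox6b1, had 30, 8 and 15 counts against 14, 9 and 13, with a log2 fold change of -0.50 that became 0.11 without the first control library. Cox8b was not analysed here. Cox7a2l, a factor that joins complexes III and IV rather than a subunit, had TgAPPswe libraries (121, 115 and 120 normalized CPM) below the control ones (139, 124 and 127) but was not called (-0.13, edgeR adjusted p = 0.0858).

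**Figure D3:**
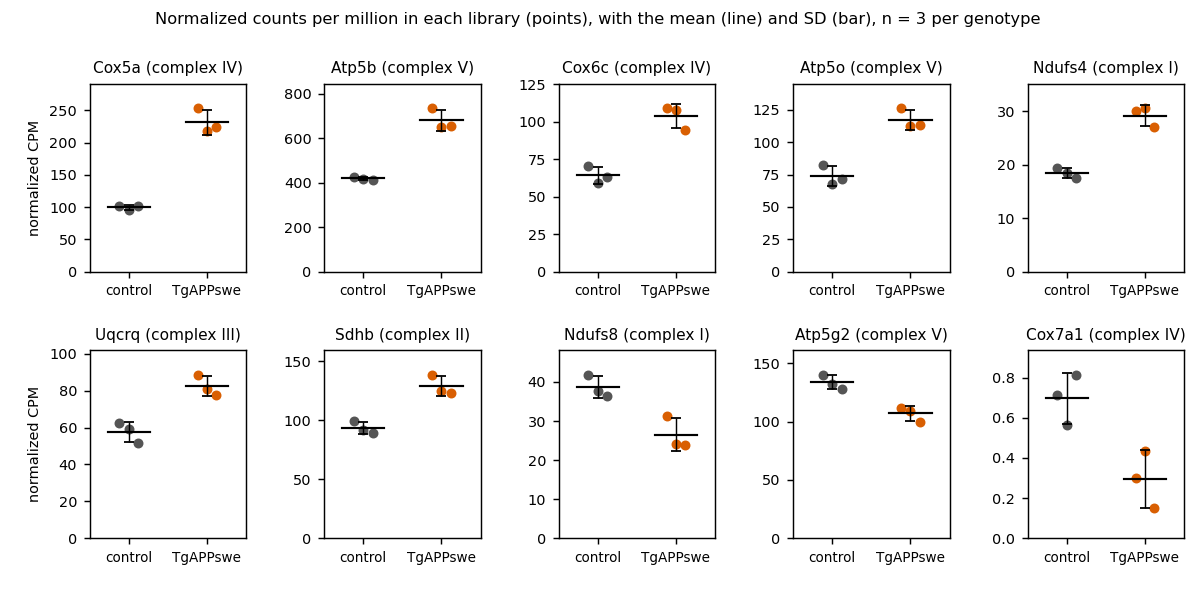
Normalized CPM (y axes, from 0, each with its own range) of 10 members in the 3 control and 3 TgAPPswe libraries, as points, with the mean as a line and the SD as a bar. Cox5a went from 94.99 to 102 in control to 218 to 253 in TgAPPswe, and Ndufs8, Atp5g2 and Cox7a1 lay lower in all 3 TgAPPswe libraries than in any control library.

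Complex V, the ATP synthase, has a catalytic head, a peripheral stalk, a ring of c subunits that turns in the membrane, and further small membrane subunits. In the head, the catalytic beta subunit Atp5b was at 427, 417 and 414 normalized CPM in control and at 735, 649.8 and 655 in TgAPPswe (log2 fold change 0.70, SE 0.06, edgeR adjusted p = 2.46e-05). Its mean FPKM over all 6 libraries was the highest of complex V (249 FPKM ± 3.25 and 348 ± 18.0, SD, n = 3). The alpha subunit Atp5a1 was raised by 0.50 (edgeR adjusted p = 6.99e-05), whereas the gamma subunit Atp5c1 (-0.03), Atp5d (0.09) and Atp5e (0.07) were not called. Head subunits, of which beta outnumbers gamma in the assembled enzyme, thus moved apart in RNA: the count ratio of Atp5b to Atp5c1 was 2.86, 3.06 and 2.97 in control and 5.23, 4.63 and 4.86 in TgAPPswe. The ratio of Atp5b to Atp5a1 changed less, from 1.11, 1.01 and 1.05 to 1.26, 1.18 and 1.18.

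Of the peripheral stalk, Atp5o, which ties the stalk to the head, was at 82.8, 67.9 and 72.0 normalized CPM in control and at 126, 113 and 113 in TgAPPswe (log2 fold change 0.66, SE 0.09, edgeR adjusted p = 0.00018). Atp5f1, subunit b, with fractional counts in 4 libraries, was raised by 0.43 (edgeR adjusted p = 0.000367), while Atp5j (0.02) and Atp5h (-0.17) were not called. Of the 4 other membrane subunits Atp5mpl (0.31), Atp5l (0.28) and Atp5j2 (0.23) were raised and Atp5k (0.10) was not called, but none was called under library size scaling and Atp5j2 lost its call in 5 of 6 fits with a library left out. Atp5s, a coupling factor named for the synthase that is no part of its core structure, was lowered from 6.56, 5.95 and 4.83 normalized CPM to 3.69, 3.82 and 4.07 (-0.58, SE 0.16, edgeR adjusted p = 0.0112).

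In the c ring, related genes were called in opposite directions. Atp5g1, Atp5g2 and Atp5g3 encode the same mature c subunit with different import sequences. Atp5g2 was at 140.1, 133 and 128 normalized CPM in control and at 112, 109 and 99.9 in TgAPPswe (log2 fold change -0.32, SE 0.06, edgeR adjusted p = 0.00232). Atp5g3 was at 86.6, 87.1 and 87.6 against 110.3, 109 and 110.1 (0.33, SE 0.05, edgeR adjusted p = 0.000375), and Atp5g1 at 70.8, 63.2 and 57.0 against 97.3, 78.0 and 82.5 (0.43, SE 0.10, edgeR adjusted p = 0.00613). None of the 3 genes overlapped between genotypes. Under library size scaling Atp5g2 stayed lowered (-0.54), and Atp5g1 (0.22) and Atp5g3 (0.12) stayed above 0 but were not called. Within each library Atp5g2 gave 47.1, 46.9 and 47.0% of the c-ring counts in control and 35.0, 36.8 and 34.2% in TgAPPswe. Atp5g1 went from 22.3% ± 1.46 to 28.3% ± 2.06 and Atp5g3 from 30.7% ± 1.503 to 36.3% ± 1.63 (SD, n = 3). An exact permutation test of 3 libraries against 3 cannot go below a two-sided p of 0.1, so for such ratios the absence of overlap is given without a test.

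**Figure D4:**
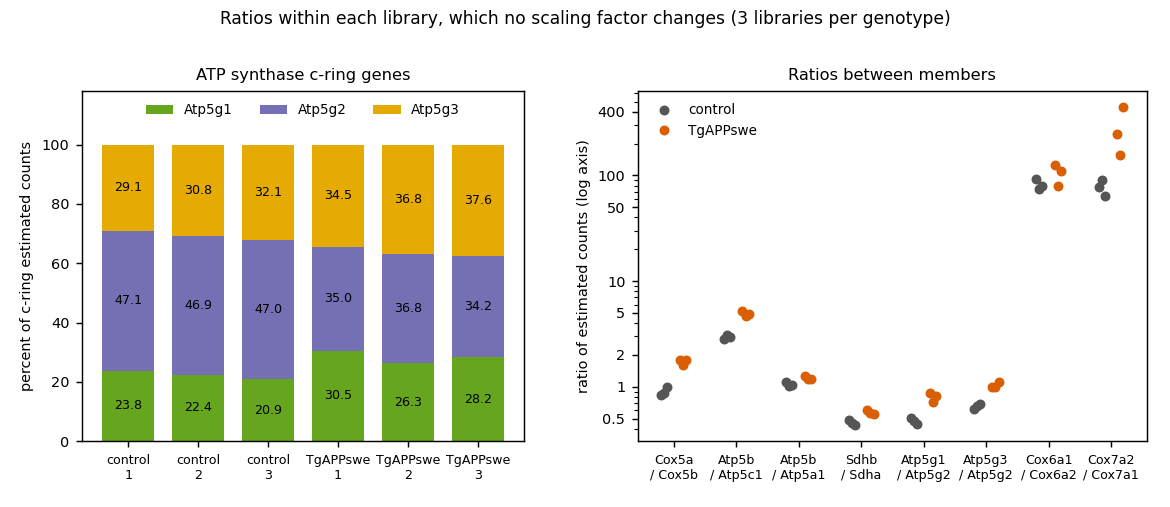
Left, percent of the estimated counts of the c-ring genes that came from Atp5g1, Atp5g2 and Atp5g3 in each library. Right, ratio of the estimated counts of pairs of members in each library (log axis), 3 points per genotype. The 8 pairs were chosen with their values known; Cox6a1 over Cox6a2 overlapped between genotypes (73.7 to 92.4 in control and 79.9 to 124 in TgAPPswe), and the others were higher in every TgAPPswe library than in any control library.

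Promoter sequence was examined for what the members share. RefSeq windows (GRCm38.p6) from 250 bases before to 50 after the start were at hand for 66 of the 80 members. The windows were searched on both strands for the letters CGCATGCG, the core of the site of NRF1, a regulator of mitochondrial genes, for CCGGAAG, a site of the ETS family that includes GABP, for AAGATGGC, a YY1 site, for TCAAGGTCA, a site of estrogen-related receptors, and for TGACGTCA, the cAMP response element. The NRF1 core and the cAMP response element read the same on both strands, and the ETS and YY1 letters can share 3 bases. The NRF1 core was in 9 of 66 members (13.6%), in 2.07% of 27025 genes with windows of the same length and in 3.46% of the 13686 of them that are also in the count table. In the same order the ETS letters were in 16 members (24.2%), 9.93% and 16.0%, the YY1 letters in 10 (15.2%), 3.19% and 4.25%, the receptor site in 2 (3.03%), 0.466% and 0.321%, and the cAMP response element in 4 (6.06%), 2.03% and 3.04%. At least one of them was in 33 of 66 members, against 16.0% of all genes with a window and 24.1% of those in the count table. Genes of the count table include ones too low to be tested. The median GC content of the 250 bases before the start was 56.4% in windows of members and 52.4% in all windows. Its part in these shares was not tested. Members with and without a match were spread over both directions: at least one of these letters was in 16 of 29 raised, 3 of 6 lowered and 14 of 31 uncalled members with a window.

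The 250 bases before the start are shown for Cox5a, Cox6a1 and the c-ring genes, 5′ to 3′ on the gene's strand, with matches in capitals. Cox5a (chr9:57520982-57521231, plus strand) rose most among called members and Cox6a1 (chr5:115348959-115349208, minus strand) had the highest FPKM in TgAPPswe. The c-ring genes follow, Atp5g1 (chr11:96075632-96075881), Atp5g2 (chr15:102671048-102671297) and Atp5g3 (chr2:73911327-73911576), all on the minus strand.
Cox5a: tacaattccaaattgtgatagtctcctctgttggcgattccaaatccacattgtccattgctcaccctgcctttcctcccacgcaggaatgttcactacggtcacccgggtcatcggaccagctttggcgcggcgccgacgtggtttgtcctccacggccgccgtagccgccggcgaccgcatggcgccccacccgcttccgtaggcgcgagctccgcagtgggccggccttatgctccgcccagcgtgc
Cox6a1: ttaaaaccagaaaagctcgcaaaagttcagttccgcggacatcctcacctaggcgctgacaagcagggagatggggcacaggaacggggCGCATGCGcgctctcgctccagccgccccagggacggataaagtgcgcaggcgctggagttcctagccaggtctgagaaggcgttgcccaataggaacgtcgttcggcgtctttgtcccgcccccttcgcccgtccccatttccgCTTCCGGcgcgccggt
Atp5g1: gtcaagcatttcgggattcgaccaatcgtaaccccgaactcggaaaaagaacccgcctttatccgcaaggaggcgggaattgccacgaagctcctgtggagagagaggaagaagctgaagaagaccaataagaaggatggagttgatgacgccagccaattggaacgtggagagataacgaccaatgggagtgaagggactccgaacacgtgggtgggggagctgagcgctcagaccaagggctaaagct
Atp5g2: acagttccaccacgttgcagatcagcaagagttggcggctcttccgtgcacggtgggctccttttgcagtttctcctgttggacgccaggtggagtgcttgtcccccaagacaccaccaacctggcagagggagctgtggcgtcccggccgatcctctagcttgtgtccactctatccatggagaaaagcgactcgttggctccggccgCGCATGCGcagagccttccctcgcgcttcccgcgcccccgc
Atp5g3: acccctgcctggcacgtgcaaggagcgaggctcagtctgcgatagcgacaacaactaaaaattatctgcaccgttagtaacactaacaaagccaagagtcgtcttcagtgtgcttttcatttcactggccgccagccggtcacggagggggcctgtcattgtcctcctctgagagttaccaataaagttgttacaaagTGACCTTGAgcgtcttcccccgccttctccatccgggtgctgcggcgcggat
Capitals mark the NRF1 core in Cox6a1 and Atp5g2, the ETS letters near the end of the Cox6a1 stretch, and the receptor site, on the other strand, in Atp5g3. The NRF1 core thus stood in a raised and in a lowered gene, and neither Cox5a nor Atp5g1 held any of the searched letters. A match is a description of letters and says nothing about binding in these cells.

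Among the regulators known for these genes, Esrra, the estrogen-related receptor alpha, was raised (0.83, edgeR adjusted p = 3.22e-06), as were the coactivator Pprc1 (0.73, edgeR adjusted p = 1.05e-05) and Gabpb1 (0.18), the last not under library size scaling. Nrf1 (-0.27, edgeR adjusted p = 0.0135), Twnk (-0.71) and Mterf1a (-0.96) were lowered, and Gabpa, Tfam, Tfb1m, Tfb2m, Polrmt and Ppargc1b were not called. Ppargc1a, the coactivator best known for mitochondrial biogenesis, had a mean of 0.0167 FPKM in either genotype and was not tested. Of the 12 tested, 3 were raised and 3 lowered, at a median log2 fold change of -0.07, and under library size scaling 2 were raised and 7 lowered. These are 25% in each direction, beside 32.5% and 31.5% of all tested genes, and all tested genes under library size were at 22.1% and 45.9%.

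Subunits and carriers outside the symbol rule were mostly higher. Of 7 tested, 5 were raised, namely AA467197, Cycs, Usmg5, Ndufab1 and Cyc1, and 1, Atpif1, was lowered, as under library size scaling. All tested genes were at 32.5% raised and 31.5% lowered, and at 22.1% and 45.9% under library size. Cycs, the somatic cytochrome c that carries electrons from complex III to complex IV, was at 65.5, 66.2 and 67.4 normalized CPM in control and at 194, 171 and 172 in TgAPPswe (log2 fold change 1.43, SE 0.07, edgeR adjusted p = 5.09e-07), beside 1.22 for Cox5a. Atpif1, the inhibitor of the ATP synthase, was at 143, 119 and 123 against 98.0, 94.3 and 88.3 (-0.46, SE 0.08, edgeR adjusted p = 0.00114). Usmg5, a small ATP synthase subunit, was at 44.1, 38.7 and 37.02 against 69.0, 56.3 and 55.6 (0.59, edgeR adjusted p = 0.00098). Ndufab1, the acyl carrier protein in complex I, was at 34.5, 34.02 and 31.6 against 48.4, 43.8 and 43.9 (0.44, edgeR adjusted p = 0.000493). Only the groups of Atpif1 had control above TgAPPswe, and none of these 4 genes overlapped. Cox4i2, the lung and hypoxia form of Cox4i1, had counts of 19, 8 and 13 in control and 6, 4 and 8 in TgAPPswe and was not tested.

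Assembly factors were raised about as often as all tested genes, of which 32.5% were raised and 31.5% lowered. For complexes IV and V 9 of 24 tested were raised (37.5%) and 1 lowered (4.17%), led by Coa5 (1.397) and Cox18 (1.16), which is needed to insert a core subunit, with Cmc2 lowered (-0.51). For complex I 5 of 15 were raised (33.3%), led by Ndufaf5 (0.78) and Timmdc1 (0.61), and 2 lowered (13.3%), Ndufaf7 (-0.71) and Tmem186 (-0.38). For complexes II and III 4 of 10 were raised (40%), led by Ttc19 (0.80) and Uqcc2 (0.66), and 2 lowered (20%), Sdhaf4 (-0.61) and Uqcc3 (-0.35). Their medians were 0.14, 0.24 and -0.07, against -0.02 for all tested genes, and under library size scaling 6 were raised and 3 lowered, 3 and 4, and 4 and 4.

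Other mitochondrial lists held more raised than lowered genes in the TCA cycle and in import. Against the same shares of all tested genes, of 14 TCA cycle enzymes 9 were raised (64.3%), led by Mdh2 (0.89) and Cs, citrate synthase (0.69), and 4 lowered (28.6%), with Fh1 (-0.50) and Idh2 (-0.46) lowest, and the same counts held under library size scaling. Of 17 genes of the mitochondrial membranes and import 14 were raised (82.4%) and none lowered, led by Vdac3 (0.80) and Hspd1 (0.73), and 12 were raised and 3 lowered under library size. Of 6 other enzymes that feed ubiquinone 3 were raised and 1 lowered (1 and 3 under library size): Gpd2, the mitochondrial glycerol-3-phosphate dehydrogenase, was raised by 1.88, Etfb and Etfa by 0.32 each, and Prodh was lowered (-1.39). Of 3 uncoupling and supercomplex factors 2 were lowered under both scalings. Ucp2, a carrier named for uncoupling, was lowered from a mean of 973 to 524 FPKM (-0.67), and Higd2a, a supercomplex factor, was lowered as well (-0.62).

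The members shared no position in the genome, lying on 19 chromosomes with at most 7 on one, and the 3 on the X chromosome were 1 raised (Cox7b), 1 lowered (Ndufb11) and 1 not called (Ndufa1). Levels per length ran from 0.480 FPKM, the control mean of Ndufa4l2, to 469 for Cox6a1 in TgAPPswe, and the 3 highest members, Cox6a1, Cox8a and Cox6b1, all belonged to complex IV. Members at or above the median length of the members were raised in 22 of 40 cases (55%) and shorter ones in 15 of 40 (37.5%), beside 32.5% of all tested genes. Under library size scaling 11 and 6 were raised and 10 and 12 lowered, beside 22.1% and 45.9% of all tested genes. The shares among all long and all short genes were not computed. Across the 80 members the Spearman correlation of log2 fold change with inferred length was 0.21 and with mean FPKM 0.14, as descriptions across genes that share the same libraries. There were 6 members with fractional counts, from reads shared with other genes, namely Ndufb4, Ndufb4c, Ndufa13, Uqcrc2, Atp5j and Atp5f1, whose values are uncertain for that reason.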

How the data were processed

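RNA of tdTomato+ cells was sequenced on a BGI DNBSEQ platform, reads that mapped to ribosomal RNA were then removed, and samples with an RNA integrity number above 2 were accepted. The authors deposited estimated counts and FPKM values per gene; the submitters' processing notes name HISAT2 2.0.4, Bowtie2 2.2.5, RSEM 1.2.12 and DESeq2 1.4.5, and the build mm10. The strand setting of counting is not given in the sources used here.

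Estimated counts were rounded to whole numbers, low genes were removed with the filterByExpr function, and 12701 genes were tested in R 4.3.3 by edgeR 4.0.16 (TMM scaling, quasi-likelihood test, Benjamini-Hochberg adjustment over all of them). Genes were called at an adjusted p at or below 0.05. Normalized CPM are counts scaled to the TMM-adjusted library total; FPKM served to compare levels between genes. Alternatives were library size and RLE scaling, DESeq2 1.42.0, limma 3.58.1 on log2(FPKM + 1) and log2(FPKM + 0.1), other filters, a removed trend on gene length, a replicate block and each library left out. The floor of 3 counts covers counting error only, and the interval of a fold change comes from the edgeR fit over libraries.

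The members and gene lists were chosen with earlier results of these data known. Values per library are given for the 2 largest rises and falls called in each complex, the highest member of each complex, isoform groups, members nearest the count minimum, and subunits outside the symbol rule; others shown per library were chosen after their values were seen. Figures used matplotlib 3.10.9. The values of 1 member are not reported here.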

Additional observations from a re-analysis of the deposited data

How the results depend on the processing

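Of the 37 raised members 17, and of the 6 lowered members 3, kept their call in all 16 alternative fits, which do not include the fold change threshold. DESeq2 raised 38 and lowered 4. Asking for a log2 fold change of 1 left 1 raised and 1 lowered. Library size scaling gave 17 raised and 22 lowered, and limma on log2(FPKM + 0.1) and on log2(FPKM + 1), which keep library size scaling, gave 20 and 21 in both cases. Under these 3 settings the members' median was -0.063, -0.061 and -0.060, that of complex I -0.107, -0.107 and -0.106, of complex II 0.039, 0.038 and 0.038, of complex III -0.0068, -0.0065 and -0.0061, of complex IV 0.068, 0.071 and 0.071, and of complex V 0.014, 0.017 and 0.017. With the trend on gene length removed 14 were lowered instead of 6, and medians were 0.066 for complex I instead of 0.11 and 0.243 for complex II instead of 0.254. The cause of the added falls was not tested. Among all tested genes 32.5% were raised and 31.5% lowered in the main fit, and 22.1% and 45.9% under library size scaling. With the threshold of 1 they were 8.9% and 9.2%. For the other settings of this section the share of all tested genes was not computed. Their counts of members thus have no background to be read against.

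With one library left out, 33 to 38 members were raised and 3 to 5 lowered, 3 without the third TgAPPswe library, and medians were 0.129 to 0.211 for the members, 0.060 to 0.147 for complex I, 0.241 to 0.263 for II, 0.168 to 0.238 for III, 0.227 to 0.345 for IV and 0.169 to 0.30 for V. Cox6b2, at -0.50, ranged from -0.85 to 0.11, the latter without the first control library.

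The libraries share replicate numbers, but the correlations of same-numbered libraries were 0.013, 0.0066 and 0.14, and the first control library correlated best with the second TgAPPswe one, so the numbers were not taken as pairs. A replicate block gave 36 raised and 7 lowered, and with the length trend removed 35 raised and 10 lowered, with medians of 0.064 for complex I and 0.243 for complex II. Cox7a1 and Cox6b2 had 3 to 30 counts per library, where counting error is large.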
